A study of Mus musculus with 8 samples.

Results

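The MYC network genes examined here are Myc, Mycn, Mycl, Max, Mga, Mnt and Mybl2, chosen by name, with all of their N6-methyladenosine (m6A) peaks in 2 deposited peak tables. These 7 genes are among 13110 Ensembl identifiers with a peak. They held 21 of the 27612 peaks of the Dox table and 25 of the 25815 peaks of the control table. The tables come from mouse embryonic stem cells that all carried a knockdown of Setd2 switched on by doxycycline (Dox). Dox cells received 1 µg/ml doxycycline for 4 days, and control cells received none. All cells grew without feeder cells, as spheres in serum-free 2i medium with 1 µM PD0325901, 3 µM CHIR99021 and 1000 U/ml LIF. In each condition, input RNA and RNA pulled down by an antibody to m6A (IP) were sequenced in 2 replicates each, 8 libraries in all. The authors called 1 peak table per condition from its 4 libraries, so the spread between replicates is not known and the conditions were compared without a test. Libraries of Dox-treated cells without the knockdown construct were not analysed here, so an effect of the drug and one of the knockdown cannot be told apart.

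MYC, MYCN and MYCL are transcription factors that bind DNA as dimers with MAX, at the E-box sequence CACGTG, and raise the output of growth and metabolism genes. MNT and MGA are also partners of MAX, and both are known as repressors at such sites. MYBL2 is not a MAX partner. It is a MYB family factor that works with the MuvB complex to switch on genes of mitosis. m6A is methylation of adenosine within messenger RNA, and it affects how long a transcript lasts and how well it is translated, and in human cells IGF2BP proteins are known to bind m6A in MYC mRNA. SETD2 writes trimethylation of lysine 36 on histone H3 along transcribed genes.

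The names of the 7 genes were matched to identifiers by location and strand on mm10. Each gene interval held peaks of 1 identifier alone, on either strand. Setd2 itself had 6 peaks in Dox and 10 in control cells, but peaks say nothing of how much Setd2 RNA was left. All 7 markers of naive stem cells examined (Pou5f1, Sox2, Nanog, Esrrb, Klf4, Zfp42 and Tfcp2l1) had peaks in both conditions, and so did 79.9% of all identifiers with a peak. Of 4 fibroblast markers, Vim and Col1a1 had peaks in both conditions, and Col1a2 and Thy1 had none in either. The RNA came from whole cultures, so a change in the makeup of the cells and a change within cells cannot be told apart.

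The RefSeq promoter table (build GRCm38.p6, the assembly of mm10) holds the 250 bases before and 50 bases after the start of 6 of the 7 genes. Short stretches are shown where a peak reached into this window or where the E-box of the network's own dimers stood in it. The first peak of Mycn reached upstream of the annotated start in both conditions. The 48 bases before that start (chr12:12941837-12941884, minus strand) all lay in the control peak, and the 18 in capitals also lay in the Dox peak. The next line is a site inside both peaks with GGAC, the core of the usual m6A motif, in capitals (chr12:12941802-12941831, minus strand). The E-boxes, in capitals, are those of Max (chr12:76962234-76962263, minus strand) and Mnt (chr11:74830789-74830818, plus strand).

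Mycn, upstream of the start: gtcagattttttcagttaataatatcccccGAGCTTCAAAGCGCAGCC

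Mycn, after the start: cagtcatctgtctGGACgcgctgggtggat

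Max: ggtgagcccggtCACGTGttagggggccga

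Mnt: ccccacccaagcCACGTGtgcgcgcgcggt

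CACGTG, which reads the same on both strands, was found in the promoter windows of Max and Mnt among the 6 genes, and in 7.15% of all 32851 windows. In Max it spans the start, from base -3 to base 3, and in Mnt it lies from -123 to -118. GGAC, searched on the transcribed strand in the 50 bases after the start, was found in Mycn, from base 19 to 22, and in Mga, and in 18.9% of all windows. Mga had no peak near that start. These matches describe the letters of the windows and are not sites shown to be bound or methylated.

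All 7 genes carried m6A peaks in both conditions, and so did 79.9% of all identifiers with a peak. In the full tables most peaks of these genes had a counterpart in the other condition, that is, at least 1 exonic nucleotide in common on the same strand. Of the 21 Dox peaks, 2 had no control counterpart (9.52%, exact Clopper-Pearson 95% interval 1.17% to 30.4%), where 29.1% of all Dox peaks had none. Of the 25 control peaks, 1 had no Dox counterpart (4%, 0.101% to 20.4%), where 19.3% of all control peaks had none. In both conditions the share over all peaks lies within the interval, so these counts do not set the genes apart. In the authors' stricter lists the shares without a counterpart were higher, at 18.8% of the genes' Dox peaks and 11.8% of their control peaks, against 22.3% and 24.0% over all peaks of those lists. The intervals hold for counting error alone and treat peaks as independent draws, although peaks of a gene share its transcripts.

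All 3 peaks without a counterpart were weak. The 2 in Dox belong to Mga, with log10 FDRs of -2.07 and -1.59, and the 1 in control belongs to Mnt, at -2.09. Weak peaks lack a counterpart often throughout the tables: above a log10 FDR of -5, 52.1% of Dox and 40.4% of control peaks do. Among the genes' own peaks in that class, 2 of 5 in Dox and 1 of 7 in control do. At -20 or less the shares over all peaks are 2.8% and 1.36%, and none of the 9 Dox and 13 control peaks of the 7 genes in that class lacked one, which allows shares of up to 33.3% and 23.1%. Of the genes' Dox peaks 16 (76.2%) and of their control peaks 18 (72%) had a log10 FDR of -5 or less, against 56.9% of all Dox and 64.3% of all control peaks.

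**Figure D1:**
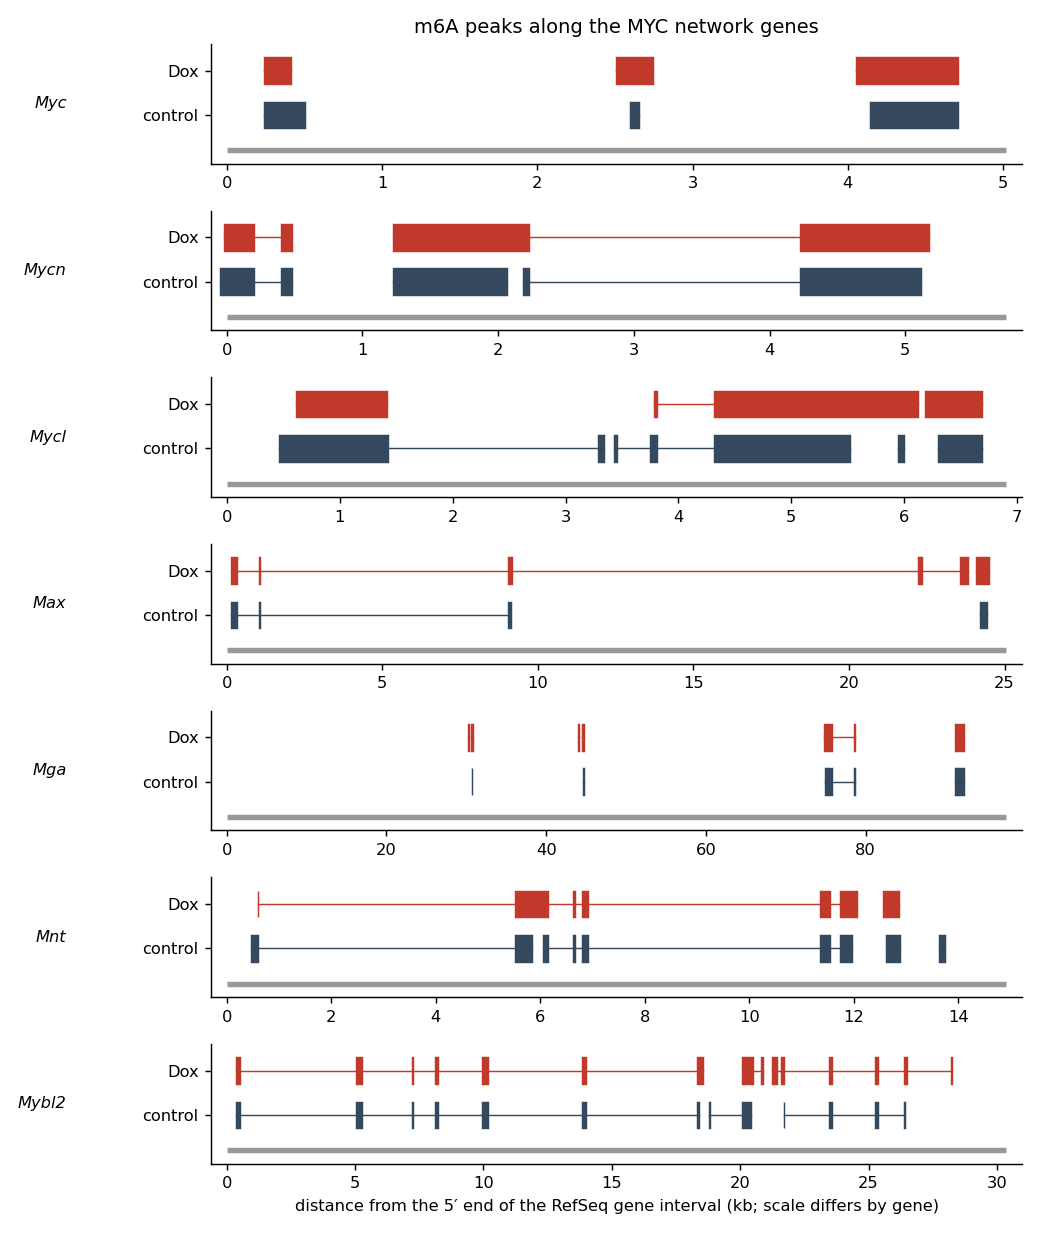
Peaks of each gene in Dox (upper row, red) and control cells (lower row, dark blue) by distance from the 5′ end of the RefSeq gene interval in kb. Boxes are the exonic blocks of a peak, drawn to scale with a thin outline, lines join the blocks of 1 peak, and the grey bar is the gene interval. The control boxes lie largely within the Dox boxes, from 82% of control nucleotides in Mnt to 100% in Max and Mga. Of the Dox nucleotides, 46% in Max and 63.5% in Mga were in both, and more in the other genes.

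Myc had 3 peaks in each condition (ENSMUSG00000022346.14, chromosome 15, 61985341 to 61990361, plus strand), each within 1 exonic block and each overlapping its counterpart. Its 5′ end peak was called in both conditions with very different support. In Dox it ran from 61985579 to 61985757, at a 5.21-fold enrichment of IP over input (log10 FDR -3.77). In control it started at the same base and ended at 61985847, at 13.2-fold enrichment (log10 FDR -29). Each fold and FDR given here is the value the authors deposited for that peak. The Dox peak did not pass the authors' stricter list (a fold of 2 or more at a p of 1e-05 or less), and the control peak did, so in the stricter lists the Myc 5′ end peak stands in control alone.

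The other Myc peaks lay further along the transcript. The middle peak was weak in both conditions, with 239 nt and a fold of 4.12 (log10 FDR -2.44) in Dox, against 60 nt and a fold of 3.42 (log10 FDR -2.74) in control. The peak near the 3′ end spanned 61989393 to 61990047 in Dox (fold 7.23, log10 FDR -6.57) and 61989482 to 61990047 in control (6.54, -17.3). Both ended at the same base, and the Dox peak covered the control peak whole. The order of folds within the gene therefore differed: the 3′ peak was the highest of the 3 in Dox, and the 5′ end peak was the highest in control. The difference between these orders was not tested.

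Mycn, the MYC paralogue of early embryonic and neural cells, had 2 Dox peaks and 3 control peaks (ENSMUSG00000037169.14, chromosome 12, 12936093 to 12941836, minus strand). The peaks covered 2246 nt of exonic sequence in Dox and 2098 nt in control, of which 2068 nt were in both, 92.1% of the Dox and 98.6% of the control nucleotides. The lower number of peaks in Dox came with nearly the same covered sequence, since the second Dox peak, of 1946 nt, spanned 2 control peaks of 839 and 929 nt. Its fold was 4.97 and its log10 FDR -204. The 2 control peaks had folds of 8.32 and 5.23. The log10 FDR of the stronger was listed as minus infinity, with a log10 p of -473, and that of the other was -193.

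The first peak of Mycn lay at the start of the transcript in both conditions, from 12941354 to 12941854 in Dox and to 12941884 in control, and crossed the same splice junction in both. It had 300 nt and a fold of 6.91 in Dox, against 330 nt and 6.5 in control. Its log10 FDR was -25.2 in Dox and -79.6 in control, so the folds were close while the support was weaker in Dox. It is the peak that holds the GGAC site printed above, and it began 18 nt upstream of the annotated start in Dox and 48 nt upstream in control.

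Mycl, the third MYC paralogue, had the highest folds of the 7 genes in Dox and in control (ENSMUSG00000028654.13, chromosome 4, 122995588 to 123002490, plus strand). Its first peak spanned 122996203 to 122997010 in Dox, with a fold of 18.4 (log10 FDR -9.95). In control it spanned 122996053 to 122998931 over 2 exonic blocks, with a fold of 24.3 (log10 FDR -76.8). These folds stand at percentile 99.1 of the Dox table and 97.2 of the control table. The Dox fold lies near a whole multiple of 1.0845 (16.97 steps). So do 80.4% of the 1891 Dox peaks with folds from 8 to 40 and a log10 FDR above -8. In control, 77.3% of the 2628 peaks of that class lie near a whole multiple of 1.23. Neither first Mycl peak is in that class, since their log10 FDRs are lower, and the share among peaks as strong was not examined. The control fold of 24.3 is not near a whole multiple of the control step of 1.23 (19.76 steps). What sets these steps was not tested, so the 2 folds may not be alike in kind. Folds below 8 were not examined for such steps, in Mycl or in the other genes.

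The remaining Mycl peaks followed the pattern of Mycn, with Dox peaks that join or extend control peaks. The second Dox peak (1826 nt, fold 7.59, log10 FDR -69.3) overlapped 2 control peaks, the larger with 1286 nt and a fold of 9.68 (log10 FDR -125). The smaller was a weak peak of 61 nt with a fold of 1.77. The last peak ended at 123002276 in both conditions and had 510 nt and a fold of 4.26 in Dox, against 390 nt and 4.09 in control. In all, 79.1% of the nucleotides covered in Dox and 90.2% of those covered in control were in both.

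Max, the shared dimer partner of the network, had the lowest highest fold of the 7 genes in both conditions (ENSMUSG00000059436.12, chromosome 12, 76937269 to 76962323, minus strand). It had 2 peaks in each. The first began at 76962188 in both, 60 nt after the start in the promoter table, and its first 2 exonic blocks of 199 and 27 nt were the same. In Dox it went on over 5 blocks and 719 nt, to 76938495, with a fold of 2.54 (log10 FDR -20.3). In control it stopped after 3 blocks and 300 nt, at 76953203, with a fold of 2.53 (log10 FDR -13.2). The peak near the 3′ end had 390 nt and a fold of 2.83 (log10 FDR -14.8) in Dox, against 210 nt and 1.9 (log10 FDR -6.37) in control. Dox peaks contained all of the control peaks of Max, and 46% of the Dox nucleotides were in both. At a fold of 1.9 the control 3′ peak falls short of the stricter list, so there the Max 3′ peak stands in Dox alone.

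Mga, a very large MAX partner that joins a Polycomb complex, had 6 peaks in each condition (ENSMUSG00000033943.15, chromosome 2, 119872503 to 119970129, plus strand). None lay near a gene end. The Dox peaks covered 2794 nt and contained the whole of the 1775 nt covered in control (63.5% of the Dox nucleotides). The 2 Dox peaks without a counterpart had 121 and 61 nt and folds of 2.01 and 1.65. The largest peaks lay in the second part of the gene. That from 119947321 to 119951192 in Dox (1080 nt, fold 4.88, log10 FDR -15) overlapped 2 control peaks of 121 and 660 nt, with folds of 2.25 and 4.58. That from 119963739 to 119964818 in Dox (1080 nt, fold 5.42, log10 FDR -14.9) overlapped 2 control peaks of 151 and 691 nt, with folds of 2.08 and 4.63. Every overlapping peak of Mga had a higher fold in Dox than its control counterparts. A smaller peak from 119917011 to 119917281 had a fold of 3.55 (log10 FDR -8.27) in Dox, against 2.04 (log10 FDR -2.17) in control, and stood in Dox alone under the stricter list.

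Mnt, the MAX partner that is present in most cells and opposes MYC, had 2 Dox peaks and 4 control peaks (ENSMUSG00000000282.12, chromosome 11, 74830806 to 74845725, plus strand). The first Dox peak ran over 6 exonic blocks and 1284 nt, from 74831398 to 74842860, with a fold of 5.86 (log10 FDR -55.2). It overlapped 2 control peaks. These were 449 nt with a fold of 5.87 (log10 FDR -61.2) and 657 nt with a fold of 7.71 (log10 FDR -126). The next peak had 300 nt and a fold of 3.37 in Dox, against 270 nt and 4.34 in control. The last control peak, from 74844442 to 74844561, is the 1 without a Dox counterpart, and its fold of 1.62 stands at percentile 2.8 of the control table. All 5 splice junctions crossed by Dox peaks were also crossed by control peaks.

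Mybl2 had 3 peaks in each condition, all overlapping (ENSMUSG00000017861.11, chromosome 2, 163054327 to 163084688, plus strand). The first was the peak with the lowest Dox fold relative to its control counterpart among the 7 genes. In Dox it had 1196 nt over 7 exonic blocks, a fold of 4.9 (log10 FDR -178). In control it had 1047 nt over 7 blocks, a fold of 20.8 (log10 FDR -318). Both peaks began at 163054687, 52 nt after the start in the promoter table, and their first 6 blocks (162, 246, 72, 93, 221 and 160 nt) were the same, so the Dox peak covered the control peak whole at a Dox fold 0.236 times the control fold. The second had a fold of 2.42 (log10 FDR -264) in Dox, against 2.23 (log10 FDR -135) in control. The third had 688 nt and a fold of 1.99 (log10 FDR -206) in Dox, which misses the stricter list by its fold alone. In control it had 270 nt and a fold of 2.95, with the log10 FDR listed as minus infinity.

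**Figure D2:**
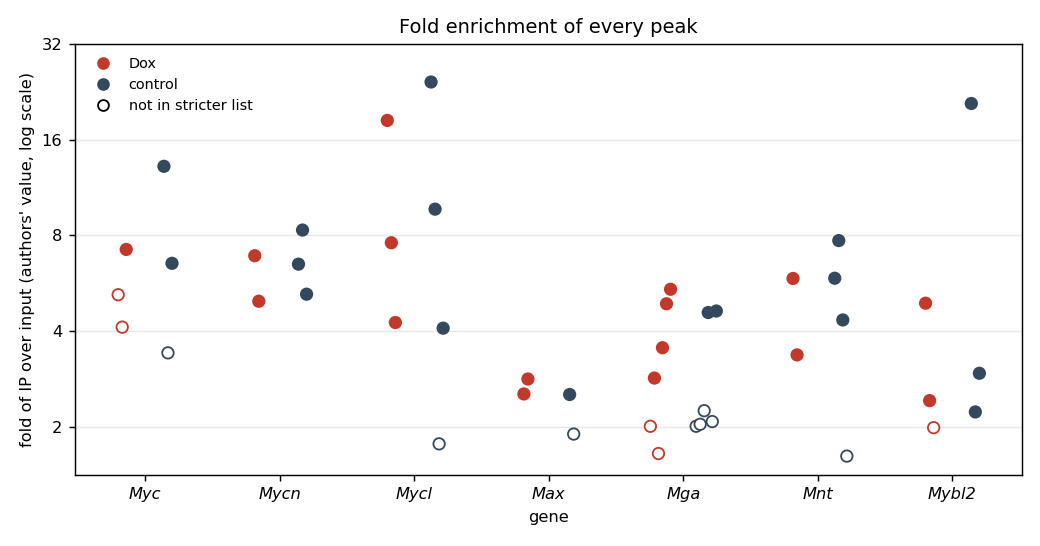
Fold of IP over input of every peak of the 7 genes, on a log scale, with Dox (red) left of control (dark blue) and peaks in 5′ to 3′ order within each. Open points are peaks outside the authors' stricter lists. Mybl2 and Myc have a control peak (20.8 and 13.2) far above any of their Dox peaks, and Mga and Max do not.

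Across the 7 genes the highest fold was lower in Dox for 5 and higher for Max and Mga. Of all 10481 identifiers with peaks in both tables, 73.6% had a lower highest fold in Dox, so the count of 5 of 7 (Myc, Mycn, Mycl, Mnt and Mybl2) is near the background. The median highest fold was 5.86 in Dox and 8.32 in control for the 7 genes, against 4.86 and 7.16 over all identifiers. The ratio of Dox over control highest folds was 0.548 for Myc, 0.831 for Mycn, 0.757 for Mycl, 1.12 for Max, 1.17 for Mga, 0.76 for Mnt and 0.236 for Mybl2, with a median of 0.697 over all identifiers. Folds of separately called tables depend on depth and pull-down, which are unknown here, and their part in these ratios was not tested. Over all peaks the median fold was 4.26 in Dox and 4.34 in control for the 7 genes, against 3.51 and 4.62 in the whole tables.

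**Figure D3:**
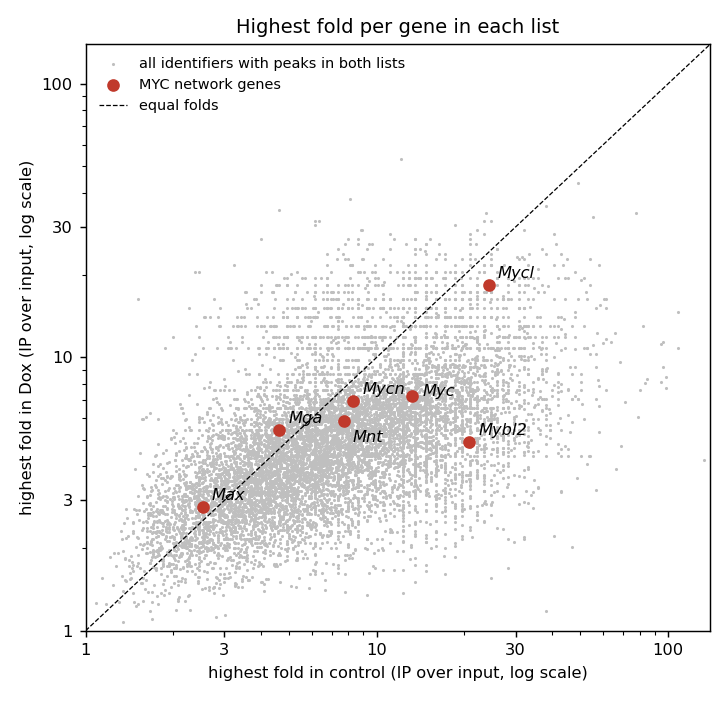
Highest fold of IP over input per identifier in Dox (vertical) and control (horizontal), both on log scales. Grey points are all 10481 identifiers with peaks in both tables, red points the 7 genes, and the dashed line equal folds. Max and Mga lie above the line and the other 5 genes below it, with Mybl2 farthest below.

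The overlapping peaks formed 24 Dox and control pairs. In 10 of them the Dox fold was lower, which is true of 64.0% of all 22933 pairs. The 14 pairs with a higher Dox fold include all 6 of Mga and the 3′ peaks of Myc, Mycl and Max. They also include the first peaks of Mycn and Max, the latter at 2.54 against 2.53. The pairs nearest the 3′ end in Mycn, Mnt and Mybl2 had lower Dox folds, at 0.95, 0.776 and 0.675 times control. Some of the higher folds were close, such as 1.04 times control at the 3′ peak of Mycl. In 21 of the 24 pairs the Dox peak was longer, against 60.2% of all pairs. The 3 exceptions were the first peaks of Myc, Mycn and Mycl, each shorter in Dox: 179, 300 and 808 nt in Dox, against 269, 330 and 1018 nt in control. A Dox peak that overlaps several control peaks enters several pairs and is longer in each, so these pairs are not independent.

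In these genes only Dox peaks joined neighbouring peaks of the other condition, but the peaks are too few to show a direction. The genes' peaks were also longer than usual, with a median of 510 nt in Dox and 330 nt in control. Over all peaks the medians were 240 and 211 nt, and the part of length in the joins was not tested. Of the 21 Dox peaks 5 overlapped 2 control peaks (1 each in Mycn, Mycl and Mnt and 2 in Mga), and 8.18% of all Dox peaks overlapped 2 or more. None of the 25 control peaks overlapped 2 or more Dox peaks, which allows a share of up to 12%, and 4.93% of all control peaks did. Mycn, Mycl and Mnt, 3 of the 7, had fewer peaks in Dox than in control, and 26.2% of all identifiers with a peak did. In total the 7 genes had 14313 nt under Dox peaks and 11265 nt under control peaks, and the whole tables also had more in Dox, with 8943048 nt in Dox and 7376986 nt in control. The 10546 nt in both conditions are 73.7% of the Dox and 93.6% of the control nucleotides, against 66.3% and 80.4% over all peaks. Peak length also depends on depth, and its part in these lengths was not tested.

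**Figure D4:**
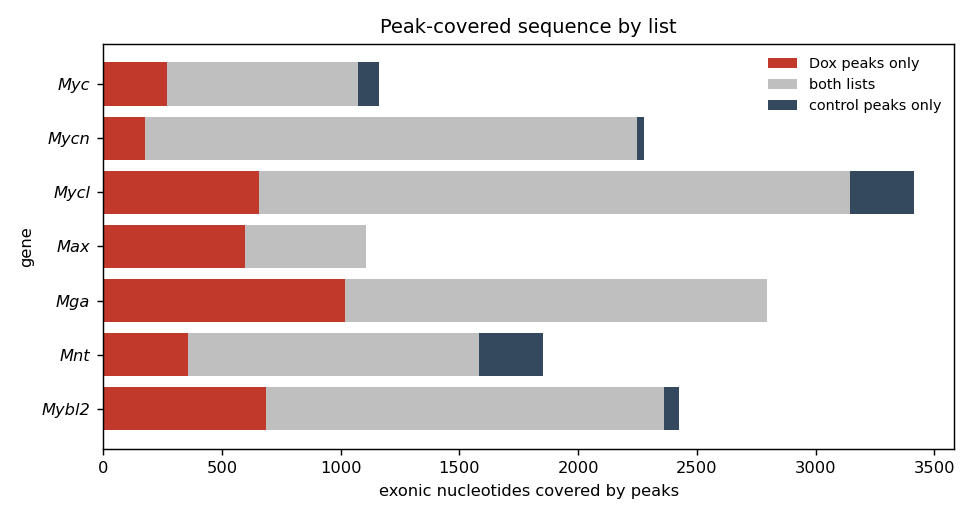
Exonic nucleotides of each gene covered by Dox peaks only (red), by peaks of both lists (grey) and by control peaks only (dark blue), as stacked bars from 0. The grey part is the longest in every gene but Max, and Max and Mga have no control-only part.

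The first peak of 6 of the 7 genes began near the start of the gene. Counted from the 5′ end of the gene interval, it began at 238 nt in Myc, 135 nt in Max and 360 nt in Mybl2, at the same base in both conditions. It began at 615 nt in Dox and 465 nt in control for Mycl, and at 592 nt and 472 nt for Mnt, so the Dox peak began later in both. Mycn began upstream of the start, and in Mga the first peak began 5439 nt (Dox) and 5978 nt (control) after the start of the promoter table. By peak midpoint, 2 Dox peaks (Myc and Mycn) and 3 control peaks (Myc, Mycn and Max) lay within 500 nt of the 5′ end, 9.52% and 12% of the genes' peaks, against 7.95% and 13.4% of all placed peaks. The Max peak left this class in Dox because it reached further along the gene and its midpoint moved, while its first base stayed the same. Within 1000 nt of the 3′ end lay 3 Dox and 4 control peaks, 14.3% and 16% of the genes' peaks, against 15.6% and 14.0% of all placed peaks. Exon and untranslated region annotation was not used here.

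Genes that work with the network were counted in 6 lists. Of all identifiers with a peak 79.9% had peaks in both tables, a share to be set beside only those listed genes that had a peak. Of 7 other partners of MAX and MLX, 5 had a peak, 4 of them in both conditions and Mlx in Dox only, while Mxd4 and Mlxipl had none. Mlxip, a glucose-responsive partner of MLX, had 4 Dox and 6 control peaks. Mxi1, a repressor partner of MAX, had 2 in each, and Mxd3 had 3 and 2. The highest fold of Mxi1 was 6.51 in Dox and 27.1 in control. Whether these folds lie near a whole step, as the first Mycl peak in Dox did, was not examined. The list's 12 Dox peaks included 2 (16.7%) without a control counterpart, where 29.1% of all Dox peaks had none, and its 12 control peaks 4 (33.3%) without a Dox counterpart, where 19.3% of all control peaks had none.

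MNT and MXD proteins recruit the SIN3 corepressor. All 7 corepressor genes listed here (Sin3a, Sin3b, Hdac1, Hdac2, Ncor1, Sap30 and Suds3) had peaks in both conditions, with 30 Dox and 27 control peaks. Of these, 6 (20%) and 2 (7.41%) lacked a counterpart. Ncor1 had 8 Dox and 5 control peaks, Suds3 had 6 in each and Sin3b had 6 and 5. All 16 MYC cofactors and turnover factors had peaks in both conditions as well, with 65 Dox and 63 control peaks. Those without a counterpart numbered 16 (24.6%) and 11 (17.5%), near the 29.1% and 19.3% of the whole tables. Trrap, the scaffold of histone acetyltransferase complexes bound by MYC, had 11 peaks in each condition, the ubiquitin ligase gene Huwe1 10 in each and Ep400 9 in each.

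Of the 9 genes of the Polycomb complex of MGA, 8 had a peak, 7 of them in both conditions and Rnf2 in Dox only. A counterpart was lacking for 4 of the list's 18 Dox peaks (22.2%) and 2 of its 15 control peaks (13.3%). Over all peaks these shares were 29.1% and 19.3%. L3mbtl2 had 4 Dox and 3 control peaks, Ring1 had 3 and 4, and Rybp had 3 and 2. Of 12 MYC target genes, 11 had a peak, 10 of them in both conditions and Eif4e in Dox only. Here 7 of the 27 Dox peaks (25.9%) and 3 of the 24 control peaks (12.5%) lacked a counterpart. Ncl, which encodes nucleolin, had 5 Dox and 7 control peaks, with a highest fold of 18.4 in Dox and 6.76 in control, Cad had 3 and 5, and Nop56 had 3 in each. The Ncl fold of 18.4 is the same value as that of the first Mycl peak in Dox, which lay near a whole step.

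The list of MYB family and MuvB genes had 12 members, of which 8 carried peaks in both, 1 in Dox only and 3 in control only. Both paralogues of Mybl2 are among the last, named here after their values were seen. Myb, the MYB gene of blood progenitors, had 2 control peaks (highest fold 5.74, lowest log10 FDR -3.81) and Mybl1, that of the male germ line, 1 (20.9, -4.13), and neither had a Dox peak. Of the list's 17 Dox peaks 4 (23.5%, against 29.1% of all Dox peaks) and of its 21 control peaks 8 (38.1%, against 19.3% of all control peaks) had no counterpart, and whether the list differs from other genes was not tested. Foxm1, a partner of MYBL2 at mitotic genes, had 3 Dox and 4 control peaks, Tfdp2 had 2 and 3, and Rbbp4 had 2 in each.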

How the data were processed

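The members and the other gene lists were chosen with earlier results of these data known. TopHat2 2.1.1, FastQC 0.11.5 and mm10 are the tools and build in the submitters' processing notes. Per the names of the deposited tables, peaks came from exomePeak. Its version, its settings and the annotation were not given in the sources used here. Per the labels' protocols, mRNA was sonicated and the library kit was stranded.

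Per the file headers, the authors give for each peak a fold enrichment, used here as the ratio of IP over input (how these were scaled is not given), and its log10 p and log10 FDR, 2 score columns. The p-value itself stands in the deposited tables under the header score. The authors' shorter lists were checked to hold exactly the peaks with a p-value of 1e-05 or less and a fold of 2 or more. Depth is unknown, nothing says whether replicates came from separate cultures, and the labels tie each table to all 4 libraries of a condition, so no test was run.

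Overlap was counted over exonic blocks on the same strand. A gene took the identifier with most peak midpoints in its RefSeq interval, where at least 50% of the identifier's midpoints lay in it. The strand came from the RefSeq promoter table, and for Myc from the peak tables. By the same rule 10679 of 13110 identifiers got a symbol. Coordinates are 1-based, mm10. All peaks of the 7 genes are described. From each of the 6 other lists the 3 genes with most peaks are named, ties by fold. The overlap counting was tested on simulated peaks. Alternatives were other peak thresholds, overlap rules, identifiers and end windows. Python 3.11.15, numpy 2.4.6, pandas 2.3.3, scipy 1.17.1 and matplotlib 3.10.9 were used.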

Additional observations from a re-analysis of the deposited data

How the results depend on the processing

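The values for the 7 genes were recomputed under 8 alternatives planned with the design and 1 added after seeing the data, the 5′ end taken from the promoter table, which left the counts of 5′ end peaks at 2 in Dox and 3 in control. Of 42 recomputed values, 35 stayed within 1.5 times the reported count or within the reported value's 95% interval. For the shares of peaks without a counterpart these intervals are wide, 1.17% to 30.4% in Dox and 0.101% to 20.4% in control. They include even the 29.1% and 19.3% of all peaks, so a share that stayed says little of robustness. With a fold of at least 4, the genes held 12 Dox and 14 control peaks, and the median control fold was 6.52. The count of Dox 5′ end peaks was 1 in the authors' stricter lists, 1 with log10 FDRs up to -5 and 1 with ends of 250 and 500 nt, where the control count was 1 too. The Dox peak lost under the first 2 of these filters is that of Myc. Peaks that lacked a counterpart made up 18.8% of Dox and 11.8% of control peaks in the stricter lists, 6.25% and 5.56% under the log10 FDR limit of -5, and 8.33% and 7.14% at a fold of at least 4. Over all peaks these shares were 22.3% and 24.0%, 22.3% and 21.0%, and 31.6% and 45.7%. Which peaks lack a counterpart differed by filter. Those of the stricter lists are the control peaks at the Myc 5′ end and the last of Mybl2 and the Dox peaks Max 3′ and 2 of Mga. The last Dox peak of Mybl2 missed its list by its fold of 1.99 alone. At a fold of at least 4 they are the second Dox peak of Myc and the third control peak of Mnt. A minimum overlap of 50% of the shorter peak, or genomic spans, changed no share. Taking all identifiers in the gene intervals could change no value, since each interval held peaks of 1 identifier alone. Its values are among the 35 that stayed and say nothing of robustness. No paired analysis was possible because both replicates are pooled in every deposited value, and for the same reason no replicate could be left out.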
